A study of Homo sapiens with 41 samples.

Results

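Forced expression of Twist in human mammary epithelial cells that carry a hairpin against ATF4 is described here from 4 RNA-seq libraries, 2 labelled shATF4 HMLE Twist_OE and 2 labelled shATF4 HMLE DMSO. The libraries belong to these groups by their labels, among 41 samples in the series, 32 of them RNA-seq and 16 of those from HMLE cells. HMLE is an established line of human mammary epithelial cells immortalised with telomerase and a viral T antigen. The groups used are HMLE cells with the ATF4 hairpin and Twist_OE, HMLE cells with the ATF4 hairpin and DMSO, the solvent control, and, for comparison, HMLE cells with the control hairpin (shCtrl) and Twist_OE and HMLE cells with the control hairpin and DMSO, with 2 libraries in each. Every group therefore carries a hairpin. One ATF4 hairpin is named. The species, promoter and duration of the Twist construct, an empty-vector control and whether Twist_OE cells received DMSO are not given in the sources used here. Whether the replicates were separate cultures is not given either, so p-values measure only the spread between these libraries.

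TWIST1 is a basic helix-loop-helix transcription factor that binds E-box sequences and, in mammary epithelial cells, is known for driving epithelial-mesenchymal transition (EMT), in which cells lose cell-cell junctions, keratins and polarity and gain N-cadherin, vimentin, fibronectin and other matrix proteins. Other EMT factors, among them the zinc-finger proteins of the SNAI and ZEB families, repress epithelial genes through the E-box core CAGGTG. ATF4 is a bZIP transcription factor made in larger amounts when translation initiation is slowed by stress, and its known targets serve amino acid import, serine and glycine synthesis and tRNA charging.

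The 8 libraries of the 4 groups held between 19802962 and 23243132 gene-assigned reads and counts above 0 for 22065 to 23234 genes, and log2 levels of replicates correlated with r of at least 0.992 across genes. Mitochondrially encoded genes took 0.677 to 0.787% of reads in shATF4 Twist_OE cells, 0.588 to 0.646% in shATF4 DMSO cells, 0.743 to 0.969% in shCtrl Twist_OE cells and 0.518 to 0.571% in shCtrl DMSO cells. Levels below are CPM (reads of a gene scaled to the TMM-normalised library size), and a gene is said to have risen, fallen or been called where its Benjamini-Hochberg adjusted p from edgeR's quasi-likelihood test, over 17940 genes, was under 0.05. Errors of log2 changes are standard errors from that fit.

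ATF4, the target of the hairpin, was at 152 and 156 CPM in shATF4 Twist_OE cells and at 128 and 121 CPM in shATF4 DMSO cells. In shCtrl cells it was at 293 and 309 CPM with Twist_OE and at 436 and 457 CPM with DMSO, so the libraries with the ATF4 hairpin lay below those without it and did not overlap with them. With Twist_OE, ATF4 rose in shATF4 cells by 0.31 ± 0.05 on the log2 scale and fell in shCtrl cells by 0.57. TWIST1 was at 30.2 and 30.6 CPM in shATF4 Twist_OE cells, against 14.6 and 10.1 CPM in shATF4 DMSO cells. In shCtrl cells TWIST1 reached 123 and 137 CPM with Twist_OE, against 16.9 and 16.4 CPM with DMSO. TWIST1 therefore rose in both, by 1.30 ± 0.12 (log2) in shATF4 cells and 2.96 in shCtrl cells, and its response was smaller in shATF4 cells by 1.66 ± 0.17 (edgeR's quasi-likelihood test of the difference, Benjamini-Hochberg adjusted p = 2.6e-07). Whether the hairpin or unequal delivery of the Twist construct set the lower TWIST1 level cannot be told apart, and counts of TWIST1 do not separate the cell's own transcript from that of a human construct.

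**Figure D1:**
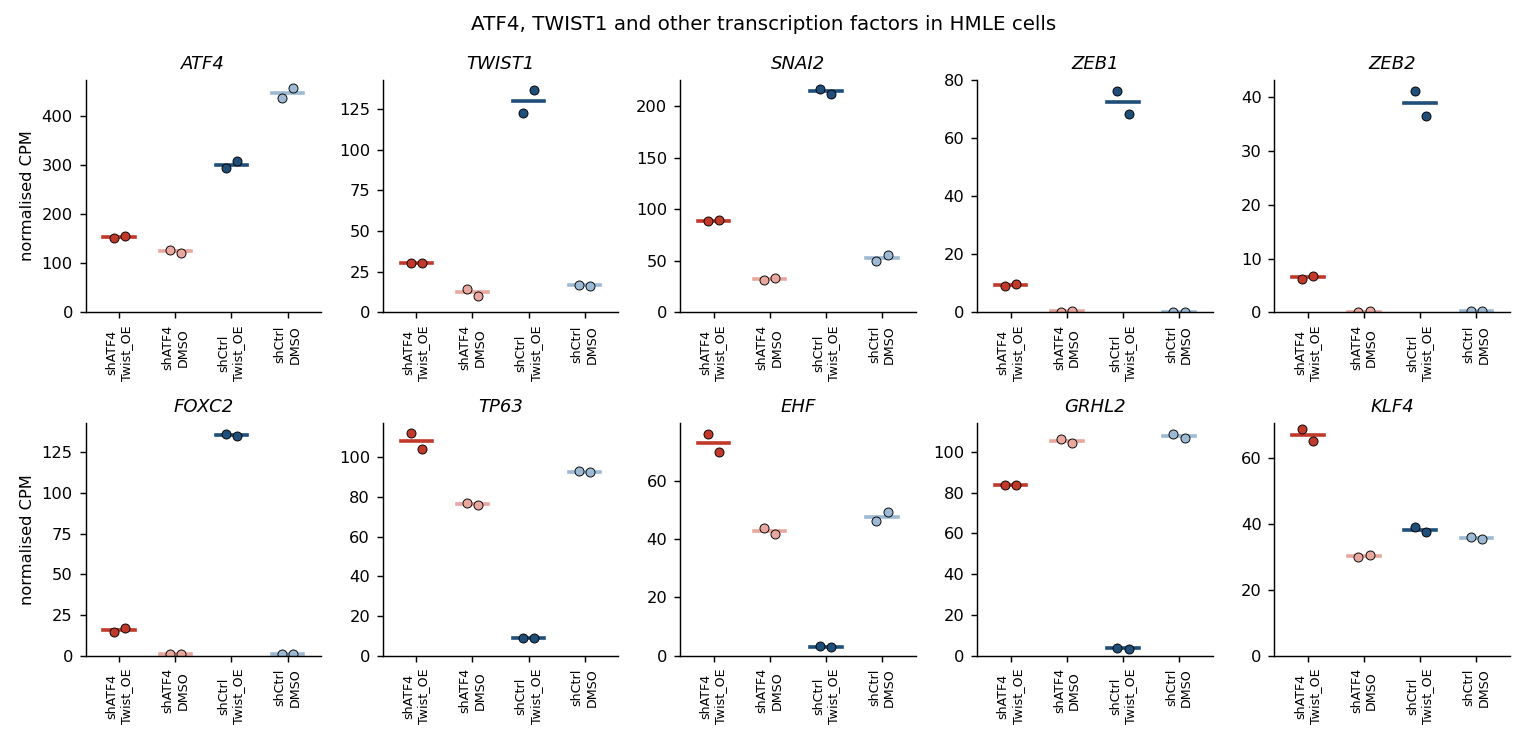
Normalised CPM (linear axes from 0) of 10 transcription factor genes in the 8 HMLE libraries, with a point for each library and a bar at each group's mean. TWIST1, SNAI2, ZEB1, ZEB2 and FOXC2 are higher in shATF4 Twist_OE than in shATF4 DMSO libraries but well below shCtrl Twist_OE libraries, while TP63, EHF and KLF4 are highest in shATF4 Twist_OE libraries.

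Some epithelial genes that all fell with Twist_OE in shCtrl cells but behaved differently in shATF4 cells hold E-boxes (CANNTG) before their starts. TWIST1 and the SNAI and ZEB repressors are known to read sequences of this class, though not every member of it alike. CRB3, a subunit of the Crumbs apical polarity complex, fell in shATF4 cells, whereas KRT5, the basal keratin, and ITGA6, the alpha-6 integrin of hemidesmosomes, rose. The 250 bases before the start of each gene are printed 5′ to 3′ on the gene's strand, from RefSeq on GRCh38.p14, at chr19:6464021-6464270 (plus strand) for CRB3, chr12:52520395-52520644 (minus strand) for KRT5 and chr2:172427086-172427335 (plus strand) for ITGA6, with every CANNTG, found alike on both strands, in capitals.
CRB3: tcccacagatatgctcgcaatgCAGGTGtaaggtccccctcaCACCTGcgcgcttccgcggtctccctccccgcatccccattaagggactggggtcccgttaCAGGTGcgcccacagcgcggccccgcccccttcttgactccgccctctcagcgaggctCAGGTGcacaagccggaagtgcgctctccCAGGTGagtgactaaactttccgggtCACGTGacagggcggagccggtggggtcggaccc
KRT5: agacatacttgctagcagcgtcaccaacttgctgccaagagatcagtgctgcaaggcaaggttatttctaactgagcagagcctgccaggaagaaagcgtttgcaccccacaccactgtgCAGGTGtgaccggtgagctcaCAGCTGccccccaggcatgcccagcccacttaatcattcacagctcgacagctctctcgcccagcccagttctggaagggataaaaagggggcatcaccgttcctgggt
ITGA6: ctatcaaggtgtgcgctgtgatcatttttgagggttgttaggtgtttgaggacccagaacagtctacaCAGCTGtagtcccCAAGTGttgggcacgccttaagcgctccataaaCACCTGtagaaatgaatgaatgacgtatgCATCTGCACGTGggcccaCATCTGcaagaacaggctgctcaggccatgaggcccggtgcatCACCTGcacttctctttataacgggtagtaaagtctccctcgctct
CRB3 holds 6 E-boxes, 5 of them CAGGTG or its reverse complement, KRT5 holds 2 with 1 CAGGTG, and ITGA6 holds 7 with 2 CAGGTG, so the letters alone do not separate the gene that fell from those that rose. Of another E-box that was searched, CATCTG, ITGA6 holds 2 and CRB3 and KRT5 hold 0. At least 1 CANNTG was present in 54.5% of the 12148 promoters of tested genes that had an entry, counting the first start listed for each gene. CAGGTG on either strand was present in 16.4% of them. CAGGTG was present in 23.5% of the 102 promoters of genes that fell at least 2-fold in shATF4 cells and in 15.0% of the 767 that rose at least 2-fold. Among 985 promoters of genes that fell at least 2-fold in shCtrl cells, 29.6% held it. The share was 31.9% for the 389 of those that also fell in shATF4 cells and 36.5% for the 96 that rose there. It was 26.6% for the 500 not called there. These shares are descriptions of letters in a window and show no binding.

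With Twist_OE, 6338 of 17940 genes (35.3%) were called in shATF4 cells, 3258 higher (18.2%) and 3080 lower (17.2%). The rises were larger than the falls: 1171 genes (6.53%) rose at least 2-fold and 168 (0.936%) fell at least 2-fold. In shCtrl cells 10259 genes (57.2%) were called, 5083 higher (28.3%) and 5176 lower (28.9%), with 2418 (13.5%) at least 2-fold higher and 1531 (8.53%) at least 2-fold lower. The response differed between the hairpins for 5328 genes (29.7%), with 2929 (16.3%) responding more positively and 2399 (13.4%) more negatively in shATF4 cells, by at least 1 on the log2 scale for 1217 (6.78%) and 746 (4.16%). These percentages of all genes are the background for the list counts below. The responses in shATF4 and shCtrl cells share no library. Of the genes that rose in shATF4 cells 77.8% also rose in shCtrl cells, which is 49.9% of the genes that rose there, and of those that fell 82.8% also fell in shCtrl cells, which is 49.3% of the genes that fell there. Another 295 genes rose in shATF4 cells and fell in shCtrl cells, and 59 did the opposite.

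Of 19 tested EMT transcription factors, 11 rose and 3 fell in shATF4 cells, where 18.2% of all genes rose and 17.2% fell. Their median log2 change was 0.72, against 0.01 over all genes. SNAI2, which encodes the repressor Slug, was at 88.7 and 89.6 CPM in shATF4 Twist_OE cells, against 31.5 and 32.9 CPM in shATF4 DMSO cells. ZEB1, which represses E-cadherin, was at 8.97 and 9.83 CPM in shATF4 Twist_OE cells, against 0.230 and 0.460 CPM in shATF4 DMSO cells. Its relative ZEB2 was at 6.27 and 6.79 CPM, against 0.0921 and 0.184 CPM. For each of the 3 genes both Twist_OE libraries lay above both DMSO libraries, and ZEB1 and ZEB2 were nearly silent without Twist_OE. In shCtrl Twist_OE cells these genes stood higher still, at 217 and 213 CPM for SNAI2, 76.4 and 68.5 CPM for ZEB1 and 41.2 and 36.5 CPM for ZEB2. The smaller response in shATF4 cells was called for SNAI2 (log2 difference of -0.56 ± 0.08) and ZEB1 (-3.99 ± 0.75), but for ZEB2 (-1.70 ± 0.83) it was not. FOXC2, a forkhead factor of mesenchymal cells, was at 14.4 and 16.8 CPM in shATF4 Twist_OE cells and 0.737 and 0.781 CPM in shATF4 DMSO cells. PRRX1, a homeobox factor of mesenchyme, had 102 and 115 reads in shATF4 Twist_OE cells and none in shATF4 DMSO cells, so that it was at least 72.6-fold higher, taking 3 reads over the DMSO group as the floor. TWIST2, the paralogue of TWIST1, rose by 1.15 ± 0.19. SNAI1 was close to the limit of detection, with no read in either shATF4 Twist_OE library. FOXQ1 and SOX9 were among the 3 that fell, by 1.16 and 0.43, and in shCtrl cells their log2 changes were -4.82 and -1.76.

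Structural and adhesion genes of mesenchymal cells rose almost without exception. Of 25 tested, 23 rose and none fell in shATF4 cells (median log2 1.10), where 18.2% of all genes rose. VIM, the intermediate filament vimentin, was at 129 and 151 CPM in shATF4 Twist_OE cells, against 5.02 and 5.29 CPM in shATF4 DMSO cells. CDH2, N-cadherin, was at 52.8 and 53.04 CPM, against 8.89 and 8.96 CPM. FN1, fibronectin, was at 4153 and 3289 CPM, against 543 and 464 CPM. The log2 changes were 4.76 ± 0.12 for VIM, 2.57 ± 0.08 for CDH2 and 2.89 ± 0.14 for FN1, and each gene's groups lay far apart. In shCtrl Twist_OE cells the same genes reached 827 and 795 CPM (VIM), 211 and 196 CPM (CDH2) and 16940 and 12730 CPM (FN1), against 3.46 and 5.17 CPM, 4.22 and 4.38 CPM and 443 and 393 CPM in shCtrl DMSO cells. The response was called smaller in shATF4 cells for 16 of the 25 genes and larger for 2. Over all genes it was more negative for 13.4% and more positive for 16.3%. CDH11, a cadherin of mesenchymal cells, had 109 and 151 reads in shATF4 Twist_OE cells and 0 and 1 read in shATF4 DMSO cells, a ratio of 261 with a counting interval of 46.4 to 10340. CD44, a hyaluronan receptor, rose by 0.20 in shATF4 cells and by 0.26 in shCtrl cells, and the difference of -0.06 ± 0.06 was not called.

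**Figure D2:**
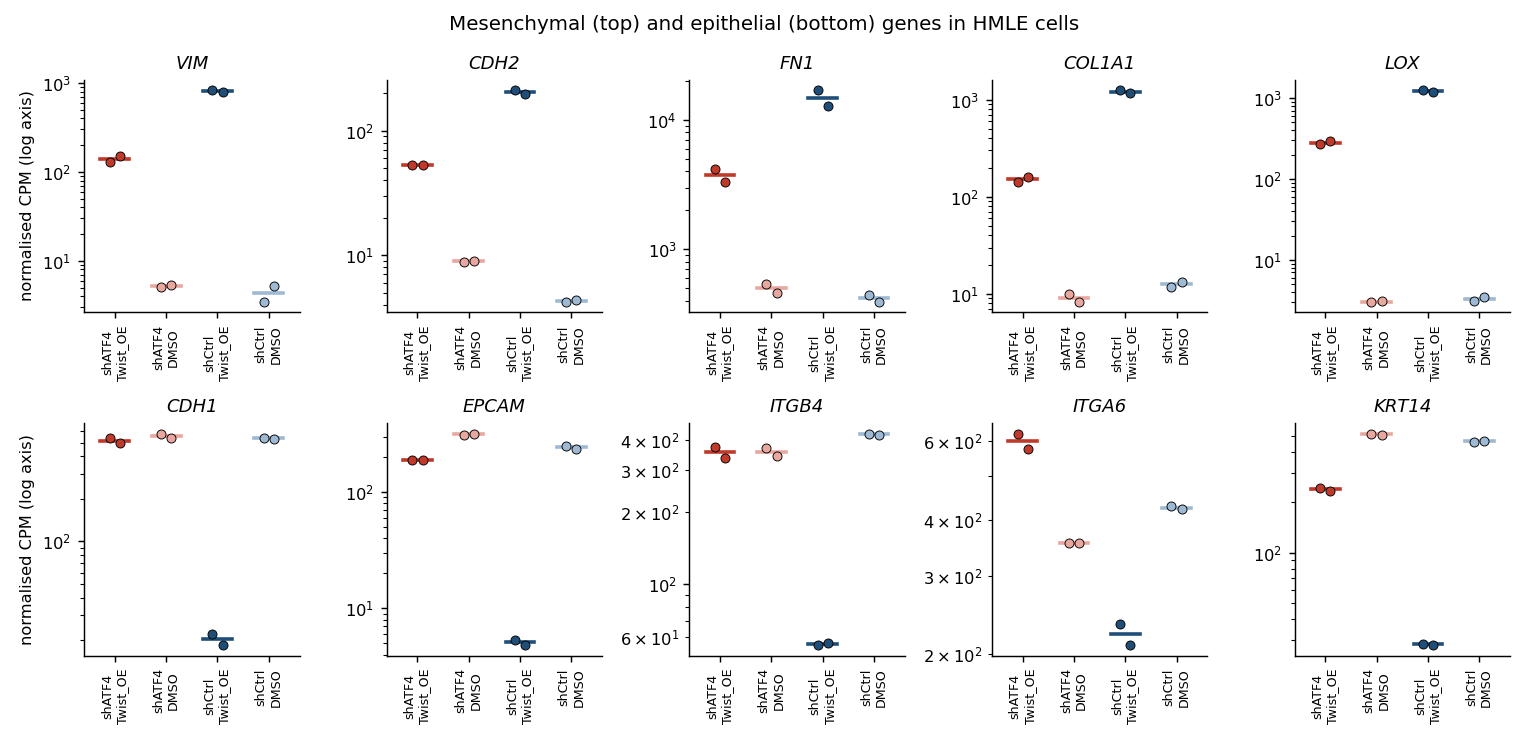
Normalised CPM on log axes of 5 mesenchymal genes (top) and 5 epithelial genes (bottom) in the 8 HMLE libraries, with a point for each library and a bar at each group's mean. VIM, CDH2, FN1, COL1A1 and LOX lie between the DMSO and the shCtrl Twist_OE libraries in shATF4 Twist_OE cells, whereas CDH1 and ITGB4 stay near the DMSO level, EPCAM and KRT14 are lower and ITGA6 is higher than in shATF4 DMSO cells.

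Genes of the extracellular matrix rose strongly, with 17 of 20 collagens higher and none lower in shATF4 cells (median log2 2.23), where 18.2% of all genes rose. COL1A1, the main chain of fibrillar collagen I, was at 143 and 160 CPM in shATF4 Twist_OE cells, against 9.95 and 8.32 CPM in shATF4 DMSO cells. COL3A1, of collagen III, was at 41.8 and 49.8 CPM, against 0.368 and 0.276 CPM. COL8A1, a short-chain network collagen, was at 185 and 183 CPM, against 1.10 and 0.827 CPM. Each of these stayed below its level with the control hairpin, where Twist_OE gave 1246 and 1172 CPM of COL1A1, 382 and 362 CPM of COL3A1 and 408 and 399 CPM of COL8A1. COL4A1, a basement membrane collagen already present in DMSO cells, had a log2 change of 2.47 ± 0.06 in shATF4 cells and 2.95 in shCtrl cells. COL6A1, a chain of collagen VI, was at 27.1 and 33.6 CPM in shATF4 Twist_OE cells and 0.368 and 0.138 CPM in shATF4 DMSO cells. COL1A2 stayed low, with 9 and 10 reads in shATF4 Twist_OE cells and 1 read in each shATF4 DMSO library.

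Matrix glycoproteins and proteoglycans rose for 18 of 27 members (median log2 1.42) and fell for none, where 18.2% of all genes rose. DCN, the collagen-binding proteoglycan decorin, was at 13.7 and 17.9 CPM in shATF4 Twist_OE cells, with 1 read in one shATF4 DMSO library and none in the other. SPARC, a collagen-binding matricellular protein, rose by 1.16. TGFBI, a matrix protein induced by TGF-beta, was at 489 and 513 CPM in shATF4 Twist_OE cells and 139 and 131 CPM in shATF4 DMSO cells, and its log2 change of 1.89 ± 0.05 exceeded the 1.55 of shCtrl cells by 0.34 ± 0.07, a difference that was called. At the other end MGP, matrix Gla protein, rose by 1.71 in shATF4 cells and 6.59 in shCtrl cells, among the most negative differences of response.

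Enzymes that fold, modify and cross-link collagen rose for 16 of 19 members (median log2 1.06), with none lower, where 18.2% of all genes rose. LOX, the lysyl oxidase that cross-links collagen, was at 268 and 292 CPM in shATF4 Twist_OE cells, against 3.04 and 3.08 CPM in shATF4 DMSO cells. LOXL2 rose by 1.06 and SERPINH1, the collagen chaperone HSP47, by 1.09. Among matrix proteases and inhibitors 15 of 20 rose and 2 fell, against 18.2% and 17.2% of all genes. MMP2, gelatinase A, rose by 4.03 while MMP9, gelatinase B, fell by 1.30. PLAU, urokinase, rose by 0.64 in shATF4 cells and fell by 0.98 in shCtrl cells, and the difference of 1.62 ± 0.09 was called.

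Genes of TGF-beta signalling and its SMAD response rose for 22 of 25 members (median log2 0.63) and fell for 1, against 18.2% and 17.2% of all genes. The response was called smaller than in shCtrl cells for 21, where that of 13.4% of all genes was more negative. The ligand TGFB2 was at 34.7 and 32.4 CPM in shATF4 Twist_OE cells, against 19.8 and 17.0 CPM in shATF4 DMSO cells. CCN2, a matricellular target of SMAD and YAP signalling, was at 37.7 and 42.1 CPM, against 5.99 and 4.96 CPM. BMP4, a BMP ligand, rose by 3.35 in shATF4 cells and 3.52 in shCtrl cells, a difference of -0.16 ± 0.23 that was not called. GREM1, a secreted BMP antagonist, was at 30.1 and 33.2 CPM in shATF4 Twist_OE cells and at 0.184 CPM in each shATF4 DMSO library.

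Of 31 genes of PDGF, FGF, EGF and WNT signalling 19 rose and 4 fell in shATF4 cells (median log2 0.57), while 16 rose and 10 fell in shCtrl cells. Over all genes 18.2% rose and 17.2% fell in shATF4 cells, and 28.3% rose and 28.9% fell in shCtrl cells. FGFR1, the fibroblast growth factor receptor of mesenchymal cells, was at 27.4 and 32.5 CPM in shATF4 Twist_OE cells, against 4.38 and 4.04 CPM in shATF4 DMSO cells. PDGFRA, a receptor of PDGF, had 63 and 66 reads in shATF4 Twist_OE cells and none in shATF4 DMSO cells, at least 43.1-fold higher. PDGFRB, the other PDGF receptor, rose by 3.50, and ROR2, a WNT5A receptor, had 43 and 61 reads, against 0 and 1. FGFR2, which epithelial cells use, rose by 0.61 in shATF4 cells and fell by 3.01 in shCtrl cells. SFRP1, a secreted WNT antagonist, was at 229 and 218 CPM in shATF4 Twist_OE cells, against 41.5 and 47.8 CPM in shATF4 DMSO cells. In shCtrl cells SFRP1 was at 29.6 and 30.8 CPM with Twist_OE and at 29.4 and 31.0 CPM with DMSO, so its log2 response of 2.33 ± 0.07 exceeded that of shCtrl cells by 2.32 ± 0.10 (edgeR's quasi-likelihood test, Benjamini-Hochberg adjusted p = 1.2e-12).

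Smooth muscle and contractile genes moved less than the matrix. Of 14 tested, 8 rose and 1 fell in shATF4 cells (median log2 0.27), where 18.2% of all genes rose and 17.2% fell. In shCtrl cells 12 rose, against 28.3% of all genes, and the response was called smaller in shATF4 cells for 11. MYL9, the regulatory myosin light chain of smooth muscle, was at 7.13 and 8.36 CPM in shATF4 Twist_OE cells, against 1.66 and 0.735 CPM in shATF4 DMSO cells and 74.7 and 72.8 CPM in shCtrl Twist_OE cells. ACTA2, smooth muscle actin, was at 4.38 and 4.77 CPM in shATF4 Twist_OE cells, against 5.39 and 4.60 CPM in shATF4 DMSO cells, and the groups overlapped. It rose by 1.26 in shCtrl cells. MYLK, the myosin light chain kinase, rose by 1.97 ± 0.10 in shATF4 cells.

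Epithelial adhesion and polarity genes changed far less with the ATF4 hairpin than without it. Of 30 tested, 4 rose and 16 fell in shATF4 cells (median log2 -0.19), where 18.2% of all genes rose and 17.2% fell. In shCtrl cells 27 fell (median log2 -3.48), against 28.9% of all genes. The response was called more positive in shATF4 cells for 26, against 16.3% of all genes. CDH1, E-cadherin of adherens junctions, was at 539 and 494 CPM in shATF4 Twist_OE cells, against 580 and 536 CPM in shATF4 DMSO cells, and the ranges overlapped. With the control hairpin it was at 22.1 and 18.5 CPM with Twist_OE, against 543 and 532 CPM with DMSO. The log2 change of -0.11 ± 0.06 in shATF4 cells was not called (edgeR's quasi-likelihood test, Benjamini-Hochberg adjusted p = 0.19) but was without the filter on low counts (-0.15), and that of shCtrl cells was -4.73. P-cadherin, CDH3, was at 645 and 602 CPM in shATF4 Twist_OE cells, against 629 and 597 CPM in shATF4 DMSO cells, and at 33.2 and 35.2 CPM in shCtrl Twist_OE cells. CD24, a surface glycoprotein, and CLDN1, a tight junction claudin, had log2 changes of -0.05 and -0.08 in shATF4 cells, neither called.

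Other junction genes did fall. EPCAM, an epithelial adhesion molecule, was at 191 and 188 CPM in shATF4 Twist_OE cells, against 312 and 320 CPM in shATF4 DMSO cells. CLDN4, another claudin, was at 200.1 and 189 CPM, against 315 and 320.4 CPM. CRB3 was at 14.5 and 11.5 CPM, against 25.4 and 21.2 CPM. Their log2 changes were -0.74 ± 0.06, -0.71 ± 0.05 and -0.85 ± 0.13, each with groups that did not overlap, and in shCtrl cells the same genes had log2 changes of -5.57, -4.94 and -5.13. OCLN, occludin, fell by 0.41. TJP3, a tight junction scaffold, rose by 0.54 ± 0.13 in shATF4 cells and fell by 5.91 in shCtrl cells.

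Transcription factors of epithelial identity divided in the same manner. Of 17 tested, 10 fell and 4 rose in shATF4 cells (median log2 -0.33). Over all genes 17.2% fell there and 18.2% rose, so the number of rises was near the all-gene share. In shCtrl cells 16 fell (median log2 -3.06), against 28.9% of all genes. GRHL2, a grainyhead factor that maintains epithelial junction genes, was at 83.8 and 83.7 CPM in shATF4 Twist_OE cells, against 106 and 104 CPM in shATF4 DMSO cells and 3.70 and 3.38 CPM in shCtrl Twist_OE cells. OVOL1, a zinc-finger repressor of EMT, fell by 0.39, ELF3 by 0.77 and FOXA1, a pioneer factor of luminal cells, by 1.15. TP63, the basal epithelial p53 relative, was at 112 and 104 CPM in shATF4 Twist_OE cells, against 77.0 and 76.2 CPM in shATF4 DMSO cells. With the control hairpin TP63 was at 8.98 and 9.004 CPM with Twist_OE, against 93.0 and 92.6 CPM with DMSO. EHF, an epithelial ETS factor, and TFCP2L1 rose as TP63 did, by 0.77 and 0.78, against falls of 3.96 and 3.06 in shCtrl cells. KLF4 was at 68.7 and 65.2 CPM in shATF4 Twist_OE cells, against 30.03 and 30.6 CPM in shATF4 DMSO cells, and its log2 change in shCtrl cells, 0.10, was not called.

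The splicing factors that set epithelial isoforms kept most of their RNA. ESRP1 was at 148 and 135 CPM in shATF4 Twist_OE cells, against 163 and 151 CPM in shATF4 DMSO cells and 6.44 and 7.22 CPM in shCtrl Twist_OE cells. Its fall of 0.15 ± 0.06 was past the threshold by little, with an edgeR Benjamini-Hochberg adjusted p of 0.040, and was not called without replicate 1 of shATF4 DMSO (-0.14) or replicate 2 of shATF4 Twist_OE (-0.09), or when only the groups compared were fitted (-0.15). ESRP2 fell by 0.23 and RBM47 by 0.56. QKI, which is known to favour mesenchymal isoforms, rose by 0.40 in shATF4 cells and by 1.36 in shCtrl cells. Over the 12 tested splicing regulators 4 rose and 6 fell in shATF4 cells, where 18.2% of all genes rose and 17.2% fell. In shCtrl cells 5 of them rose and 6 fell. The response was called more positive in shATF4 cells for 4 and more negative for 4, against 16.3% and 13.4% of all genes.

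Desmosome and hemidesmosome genes did not move as one. For scale, 18.2% of all genes rose and 17.2% fell in shATF4 cells, and 28.9% fell in shCtrl cells. Of 20 tested, 6 rose (3 without replicate 1 of shATF4 Twist_OE) and 6 fell in shATF4 cells (median log2 -0.01, and 0.06 without replicate 2 of shATF4 Twist_OE), while 18 fell in shCtrl cells. The hemidesmosome genes ITGA6, LAMA3 and COL17A1 rose in shATF4 cells and fell in shCtrl cells. ITGA6 was at 624 and 575 CPM in shATF4 Twist_OE cells, against 355 and 355 CPM in shATF4 DMSO cells and 234 and 210 CPM in shCtrl Twist_OE cells. LAMA3 and COL17A1 each rose by 0.33, though LAMA3 was not called without replicate 1 of shATF4 Twist_OE (0.17). ITGB4, the integrin partner of ITGA6, was at 373 and 336 CPM in shATF4 Twist_OE cells, against 371 and 342 CPM in shATF4 DMSO cells, and the groups overlapped. PKP2, a desmosome plaque protein, fell by 0.52. DSP, desmoplakin, was at 462 and 328 CPM in shATF4 Twist_OE cells, against 538 and 447 CPM in shATF4 DMSO cells, a log2 change of -0.32 ± 0.16 that was not called, but was without replicate 1 of shATF4 Twist_OE (-0.59) and without the filter on low counts (-0.36).

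Of 20 tested keratins, 11 fell and 4 rose in shATF4 cells (median log2 -0.35), where 17.2% of all genes fell and 18.2% rose. In shCtrl cells 17 fell (median log2 -3.27), against 28.9% of all genes. KRT14, a basal keratin, was at 245 and 234 CPM in shATF4 Twist_OE cells, against 518 and 506 CPM in shATF4 DMSO cells. Its usual partner KRT5 went the other way, at 2625 and 2571 CPM, against 2218 and 2181 CPM. In shCtrl Twist_OE cells both were low, at 28.5 and 27.9 CPM of KRT14 and 233 and 232 CPM of KRT5. KRT13, of stratified mucosa, fell by 1.05 in shATF4 cells and 7.46 in shCtrl cells. KRT4, its partner, was at 1.07 and 0.422 CPM in shATF4 Twist_OE cells, against 7.64 and 8.50 CPM in shATF4 DMSO cells, the largest fall by the naming rule.

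Genes of keratinocyte differentiation and the S100 proteins moved in both directions. Of 26 tested, 8 rose and 13 fell in shATF4 cells, where 18.2% of all genes rose and 17.2% fell. In shCtrl cells 25 fell and none rose, where 28.9% of all genes fell and 28.3% rose. The response was called more positive in shATF4 cells for 23, against 16.3% of all genes. S100A8 and S100A9, which form calprotectin in stressed and inflamed epithelium, both rose. S100A9 was at 96.6 and 101.5 CPM in shATF4 Twist_OE cells, against 29.4 and 31.3 CPM in shATF4 DMSO cells, and in shCtrl cells it was at 3.30 and 5.07 CPM with Twist_OE, against 40.8 and 41.2 CPM with DMSO. S100A8 rose by 2.29 ± 0.15 and fell by 1.67 in shCtrl cells. LCN2, the iron-siderophore carrier lipocalin, was at 26.8 and 31.9 CPM in shATF4 Twist_OE cells, against 13.7 and 14.6 CPM in shATF4 DMSO cells, and its response differed from that of shCtrl cells by 7.07 ± 0.23, the most positive difference by the naming rule. KLK10, a kallikrein protease, rose by 0.91. S100P and S100A14 fell, by 2.09 and 0.86.

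**Figure D3:**
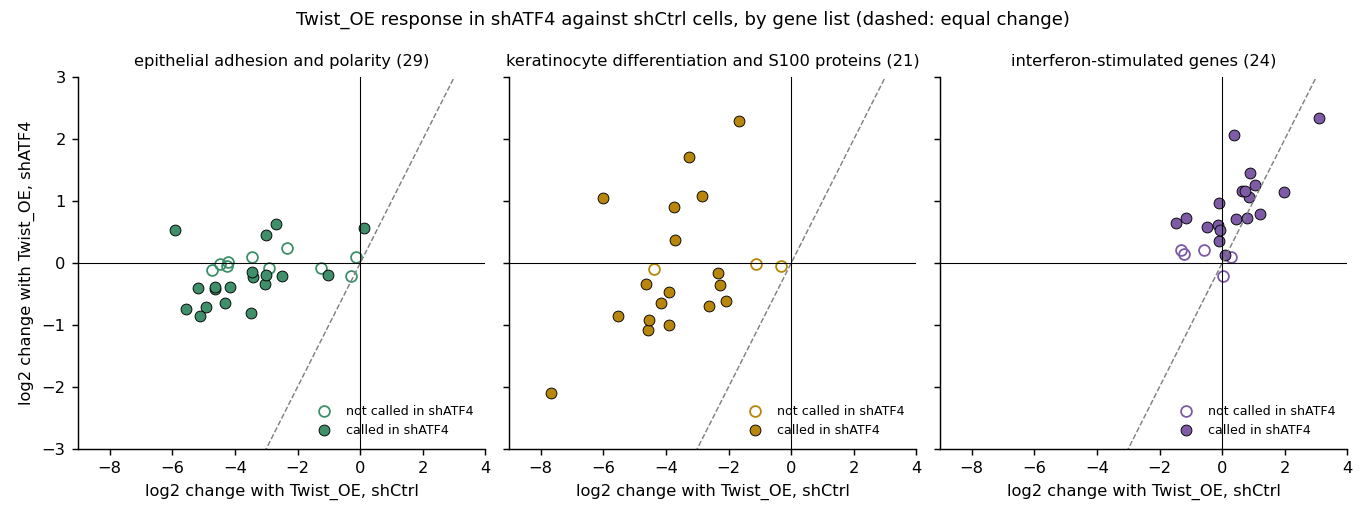
Log2 change with Twist_OE in shATF4 cells (vertical) against shCtrl cells (horizontal), a point for each tested gene of 3 lists with more than 3 counts in each of the 4 groups, filled where called in shATF4 cells, and a dashed line of equal change. All 29 adhesion and polarity genes and all 21 keratinocyte and S100 genes plotted lie above the line, and 18 of 24 interferon-stimulated genes do.

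The size of the change in shATF4 cells was set against that in shCtrl cells on the linear CPM scale, as the mean Twist_OE minus DMSO difference in shATF4 cells in percent of that in shCtrl cells. TWIST1 itself had a share of 16.0%. Over 1196 genes that rose at least 2-fold and by at least 5 CPM in shCtrl cells, the median share was 26.1%, with the central 80% between 10.6 and 54.3%. It was 25.2% from replicate 1 and 27.03% from replicate 2 of shATF4 Twist_OE. Of these genes 89.5% were called higher in shATF4 cells, and 3 were called lower, against 18.2% and 17.2% of all genes. The median was 16.6% for 9 EMT factors, 23.9% for 16 mesenchymal genes and 25.6% for 14 collagens. The EMT factors ranged from 11.01% to 55.7%, with 12.5% for ZEB1, 16.6% for ZEB2 and 35.2% for SNAI2. Among mesenchymal genes the share was 15.2% for CDH11, 16.7% for VIM, 22.1% for CDH2 and 22.3% for FN1. In bulk RNA, fewer cells with a full change and a smaller change in every cell cannot be told apart.

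Genes that fell in shCtrl cells were more spread. Over 788 that fell at least 2-fold and by at least 5 CPM, the median share was 23.3%, with the central 80% between -32.7 and 60.1%. A share below 0, a change in the opposite direction, was found for 185 of them (23.5%), against 23 of the 1196 genes that rose. In shATF4 cells 54.8% were called lower, against 17.2% of all genes. Another 91 genes (11.5%) were called higher, which is below the 18.2% of all genes. The median was 13.5% for 26 adhesion and polarity genes, 36.2% for 13 keratins and 19.8% for 18 keratinocyte and S100 genes. CDH1 had a share of 8.02%, ITGB4 0.666%, EPCAM 53.1%, KRT14 62.3% and TP63 -37.8%. ITGA6, which fell less than 2-fold in shCtrl cells and so is not among the 788, had a share of -119.9%. These shares are descriptions and were not tested.

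**Figure D4:**
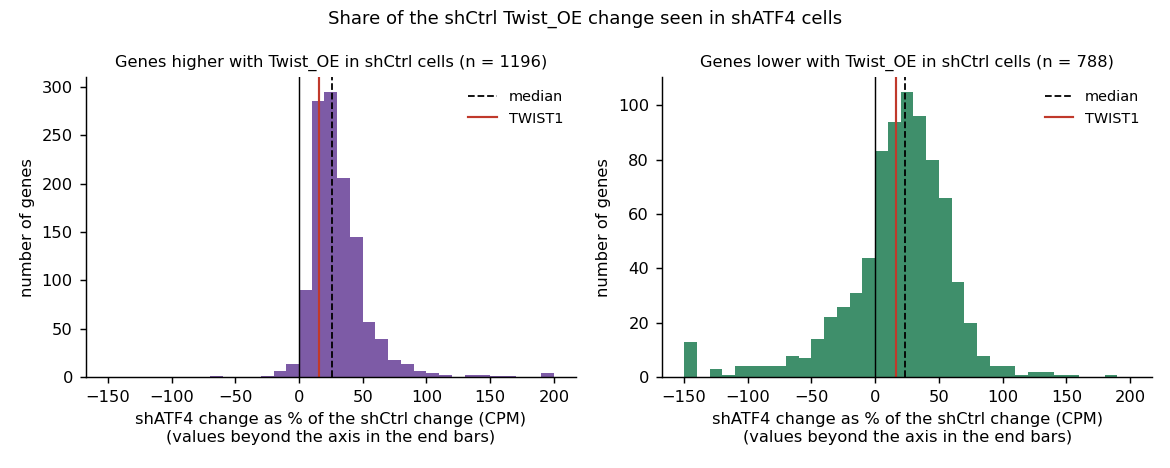
Number of genes by the change in shATF4 cells in percent of the change in shCtrl cells (mean CPM, Twist_OE minus DMSO), for 1196 genes that rose (left) and 788 that fell (right) in shCtrl cells, with the median dashed and TWIST1 as a red line. The left distribution has few genes below 0, whereas the right one is wider and has 185.

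Interferon-stimulated genes rose for 20 of 25 members in shATF4 cells and fell for none (median log2 0.73), where 18.2% of all genes rose. In shCtrl cells 10 rose and 6 fell (median log2 0.28), where 28.3% of all genes rose and 28.9% fell. The response was called more positive in shATF4 cells for 14 and more negative for 2, against 16.3% and 13.4% of all genes. HLA-B, an antigen-presenting class I molecule, was at 386 and 356 CPM in shATF4 Twist_OE cells, against 164 and 166 CPM in shATF4 DMSO cells. PSMB9, an immunoproteasome subunit, was at 55.3 and 53.1 CPM, against 18.97 and 20.7 CPM. IFI44 was at 31.3 and 31.9 CPM, against 18.1 and 20.1 CPM, and in shCtrl cells at 9.18 and 10.2 CPM with Twist_OE, against 22.3 and 20.6 CPM with DMSO. OAS1, an antiviral RNA sensor, rose by 0.64 in shATF4 cells and fell by 1.47 in shCtrl cells.

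Cytokines and chemokines rose for 14 of 22 members and fell for 2, or for 1 without replicate 2 of shATF4 DMSO or replicate 1 of shATF4 Twist_OE. In the same contrast 18.2% of all genes rose and 17.2% fell. CXCL1, a neutrophil chemokine, was at 47.0 and 51.1 CPM in shATF4 Twist_OE cells, against 10.4 and 8.92 CPM in shATF4 DMSO cells, and it reached 45.0 and 45.4 CPM in shCtrl Twist_OE cells. CXCL6 was at 12.4 and 14.6 CPM in shATF4 Twist_OE cells, above the 2.38 and 2.605 CPM of shCtrl Twist_OE cells, and at 0.645 and 0.644 CPM in shATF4 DMSO cells. CXCL8 rose by 2.29 ± 0.15. CCL2, a monocyte chemokine, had 87 and 122 reads in shATF4 Twist_OE cells, against 0 and 3 in shATF4 DMSO cells.

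Targets of the integrated stress response, the pathway that ATF4 serves, moved in both directions. Of 22 tested, 6 rose and 5 fell in shATF4 cells (median log2 0.05, and 0.01 to 0.11 under the alternatives), where 18.2% of all genes rose and 17.2% fell. In shCtrl cells 7 rose and 12 fell (median log2 -0.29), where 28.3% of all genes rose and 28.9% fell. TRIB3, a pseudokinase induced by ATF4, was at 72.3 and 64.6 CPM in shATF4 Twist_OE cells and 71.2 and 70.9 CPM in shATF4 DMSO cells, where the groups overlapped, and fell by 1.43 in shCtrl cells. DDIT4, an mTORC1 inhibitor, had a log2 change of -0.10 in shATF4 cells, called only without the filter on low counts (-0.14) among the alternatives tried, and fell by 1.55 in shCtrl cells. CHAC1, a glutathione-degrading enzyme, rose by 1.06 ± 0.26 but stayed under 2 CPM, and was not called without replicate 1 of shATF4 DMSO (0.80). STC2, a secreted glycoprotein, rose by 1.64 in shATF4 cells and 1.61 in shCtrl cells, and GDF15, a stress-induced cytokine, fell by 1.06 and 0.94. ASNS, asparagine synthetase, was under 1 CPM in the 4 shATF4 libraries.

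In serine, glycine, one-carbon and proline synthesis 6 of 16 genes rose and 2 fell, or 4 without replicate 1 of shATF4 DMSO or of shATF4 Twist_OE. ALDH1L2, a mitochondrial folate enzyme, was at 35.6 and 36.3 CPM in shATF4 Twist_OE cells, against 12.5 and 12.6 CPM in shATF4 DMSO cells, and stood higher in shCtrl cells, at 124 and 109 CPM with Twist_OE and 77.6 and 69.2 CPM with DMSO. PHGDH, the first enzyme of serine synthesis, rose by 0.67. Amino acid transporters rose for 7 of 13 members and fell for none, while 5 rose and 7 fell in shCtrl cells. Over all genes 18.2% rose and 17.2% fell in shATF4 cells, and 28.3% rose and 28.9% fell in shCtrl cells. SLC7A5, the large neutral amino acid transporter LAT1, was at 3630 and 3454 CPM in shATF4 Twist_OE cells, against 2894 and 2778 CPM in shATF4 DMSO cells, and in shCtrl cells at 2002 and 1954 CPM with Twist_OE, against 4153 and 4151 CPM with DMSO. Its heavy chain SLC3A2 and the glycine transporter SLC6A9 likewise rose, by 0.22 and 1.24, and fell in shCtrl cells, by 0.77 and 0.88. Of 20 cytosolic aminoacyl-tRNA synthetases 9 fell and 2 rose, or 1 when any of the 4 shATF4 libraries was left out, and the median log2 change was -0.10.

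Several processes changed in the same direction with either hairpin. ER chaperones and ER-associated degradation genes rose for 12 of 19 members and fell for none (median log2 0.22, against 0.28 in shCtrl cells). Over all genes 18.2% rose and 17.2% fell in shATF4 cells. The response differed for 3 of the 19, against 29.7% of all genes. HSPA5, the chaperone BiP, rose by 0.30 and PDIA4, a disulfide isomerase, by 0.50, with differences from shCtrl cells of -0.05 ± 0.07 and 0.02 ± 0.07 that were not called. CREB3L1, an ER-bound factor that activates collagen genes, had 147 and 218 reads in shATF4 Twist_OE cells, against 1 and 2 in shATF4 DMSO cells. Of 22 genes of cholesterol synthesis 17 fell and none rose (median log2 -0.41). In shCtrl cells 17 fell, where 28.9% of all genes did. HMGCS1, of the mevalonate pathway, was at 99.6 and 91.3 CPM in shATF4 Twist_OE cells, against 152 and 164 CPM in shATF4 DMSO cells. INSIG1, a sterol sensor and SREBP target, fell by 0.70 in shATF4 cells, whereas its log2 change in shCtrl cells, 0.02, was not called.

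**Figure D5:**
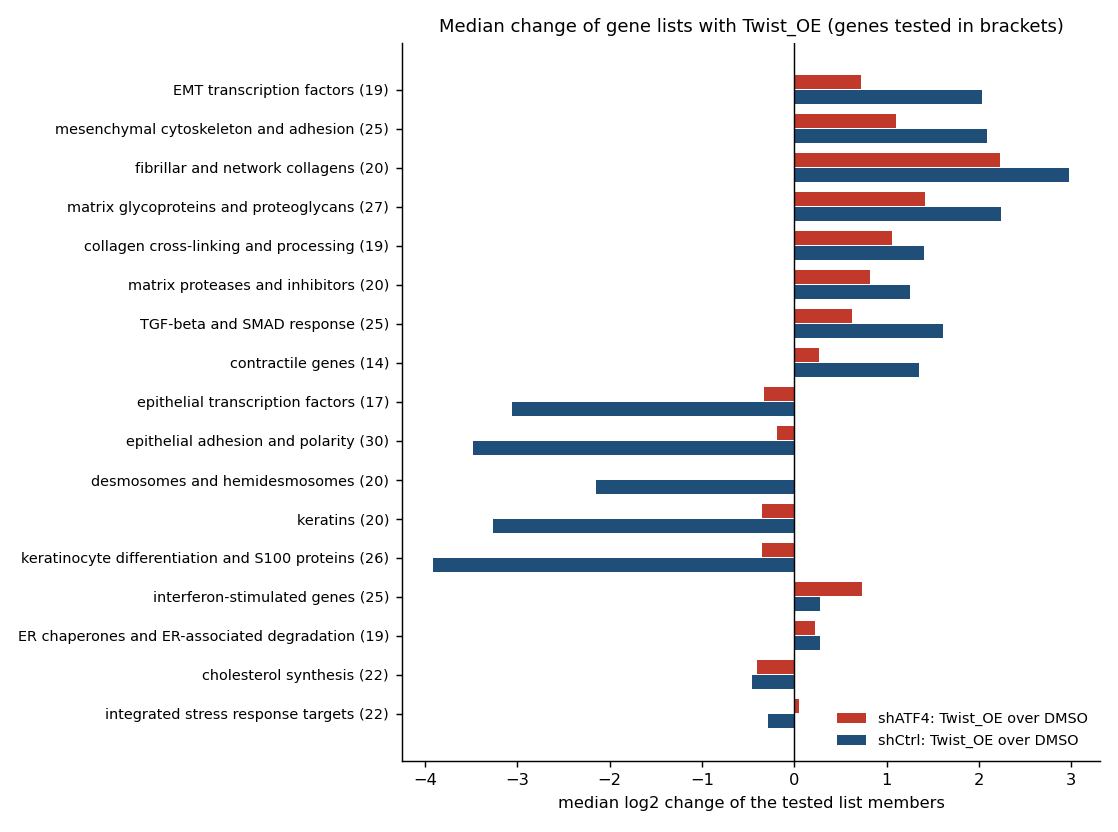
Median log2 change with Twist_OE of the tested members of 17 gene lists, with the shATF4 bar above the shCtrl bar and the number of genes tested in brackets. In shATF4 cells the mesenchymal and matrix lists have medians between 0.27 and 2.23, the epithelial lists between -0.35 and -0.01, and the interferon-stimulated genes 0.73.

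Of 25 cell cycle genes 4 rose and 5 fell (median log2 -0.02), near the 18.2% and 17.2% of all genes, with 2 higher without replicate 2 of shATF4 DMSO or replicate 1 of shATF4 Twist_OE, and 2 lower without replicate 2 of shATF4 Twist_OE. MKI67, a marker of cycling cells, was at 429 and 295 CPM in shATF4 Twist_OE cells, against 458 and 351 CPM in shATF4 DMSO cells, with groups that overlapped, and its log2 change was called without the filter on low counts (-0.21). TYMS, thymidylate synthase, rose by 0.57. Of 25 ribosomal protein genes 23 fell in shATF4 cells (median log2 -0.24) and 24 fell in shCtrl cells (median log2 -0.33).

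Markers of other cell types were read beside the mesenchymal lists. The 10 fibroblast and stromal markers rose without exception, summing to 343 and 378 CPM in shATF4 Twist_OE cells, against 40.1 and 40.4 CPM in shATF4 DMSO cells and 2224 and 2108 CPM in shCtrl Twist_OE cells; they include collagen, PDGF receptor and decorin genes named above. Endothelial markers summed to 10.2 and 10.55 CPM, against 1.98 and 2.25 CPM in shATF4 DMSO cells, and 3 of 5 tested rose, or 1 without replicate 1 of shATF4 DMSO. PECAM1, an endothelial junction protein, supplied most of this, at 7.39 and 7.76 CPM in shATF4 Twist_OE cells and 1.15 and 0.873 CPM in shATF4 DMSO cells, while EMCN had no read in the 4 libraries. The leukocyte markers PTPRC, CD3E, CD68 and LYZ had at most 2 reads in any of the 4 libraries. CD14 had 118 and 117 reads in shATF4 Twist_OE cells, against 105 and 107 in shATF4 DMSO cells, and ITGAM had 12 and 3, against 3 and 3. The leukocyte list summed to 6.83 and 5.23 CPM, against 5.11 and 5.10 CPM in shATF4 DMSO cells, most of it CD14. Of 10 stellate cell markers HAND2, LHX2 and ADAMTSL2 had no read, and the list summed to 93.5 and 101.3 CPM, against 121.4 and 125 CPM, most of it NGFR, which basal mammary cells also express. The part of other cells in the changes was not tested.

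The largest rises by the naming rule belonged to genes that were all but silent in shATF4 DMSO cells. HHIP, a Hedgehog-binding protein, had 462 and 613 reads in shATF4 Twist_OE cells, against 0 and 1, a ratio of 1079 with a counting interval of 193 to 42650. PID1 had 177 and 221 reads, against 0 and 2, and VCAN, the proteoglycan versican, had 236 and 210 reads, against 0 and 2. PRRX1, DCN, COL6A2, CDH11, COL8A1, GREM1, COL3A1, COL6A1 and CREB3L1 complete the 12, and each also rose in shCtrl cells. The falls were of genes with clear levels in DMSO cells. HAS3, a hyaluronan synthase, was at 12.9 and 11.9 CPM in shATF4 Twist_OE cells, against 85.9 and 91.4 CPM in shATF4 DMSO cells. NOTCH3, a receptor of the Notch family, was at 9.94 and 9.20 CPM, against 52.0 and 50.2 CPM. CALB2, the calcium-binding protein calretinin, was at 7.08 and 6.46 CPM, against 34.8 and 34.0 CPM. Their log2 changes were -2.84 ± 0.10, -2.42 ± 0.09 and -2.35 ± 0.12, and those in shCtrl cells were -5.75, -2.92 and -7.50. On the CPM scale the change of HAS3 in shATF4 cells was 181% of that in shCtrl cells, and that of CALB2 102%. Such shares depend on each gene's level in DMSO cells. On the log2 scale both genes fell less in shATF4 than in shCtrl cells, with differences of 2.90 for HAS3 and 5.16 for CALB2.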

How the data were processed

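Per the labels' protocols, an RNeasy kit gave the RNA of HMLE cells and a SMARTer kit the mRNA libraries. The deposited files hold raw counts of reads per Ensembl gene, which the authors made with tools listed in the submitters' processing notes (cutadapt, STAR, featureCounts, with hg19 and hg38 named). Their roles, versions and any use of strand are not given in the sources used here, so reads of overlapping antisense genes cannot be told apart. Of 58735 genes, 58207 matched a symbol, and 110 lines per file with no gene name were left out. The 2 libraries labelled shATF4 HMLE AA_Dep held identical values, with the same name in both headers, and entered once, which left 15 HMLE libraries. No pair of replicates in the 4 groups compared was within sampling noise.

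Counts were filtered with filterByExpr and TMM-normalised, and 1 model over the 15 libraries in 8 groups was fitted with edgeR 4.0.16 in R 4.3.3 (quasi-likelihood F test, Benjamini-Hochberg adjustment over 17940 genes, threshold 0.05, common biological coefficient of variation 5.24%). Contrasts were Twist_OE minus DMSO in shATF4 cells, the same in shCtrl cells, and their difference. With no read in a group, a lower bound used 3 reads over that group, and with 1 to 3 reads an exact 95% interval of the ratio covers counting error only. The script was tested on simulated data. Alternatives used DESeq2 1.42.0, another normalisation, no filter, a replicate block, fewer groups and each library left out. Replicate numbers were shared, with a correlation of same-numbered deviations given in the closing part, and the design does not pair them.

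The comparison, 35 gene lists and named genes were chosen with earlier results of these data known. Named were a list of key genes whatever their values, up to 3 called members per list with the largest change, the 12 largest called rises and falls with at least 5 CPM and groups that did not overlap, and the 8 largest called differences each way. SERF1B, RGPD6 and SMN1, which have near-identical copies, were left out, some genes that the rule names are not reported here, and further members named in the text were chosen after their values were seen. The LX-2 libraries and the ChIP samples were not used here.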

Additional observations from a re-analysis of the deposited data

Results flagged for a closer look

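The response to Twist_OE differed between shATF4 and shCtrl cells for 5328 of 17940 genes (29.7%), by the interaction term of edgeR's quasi-likelihood fit. It also differed for 100 of the genes followed individually that had more than 3 reads in each of the 4 groups. Some of these were named for a large difference or after their values were seen. Their number therefore does not measure how common differences are. Values are log2 differences, the shATF4 response minus the shCtrl response, each past a Benjamini-Hochberg adjusted threshold of 0.05 over all genes tested.

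ATF4 differed by 0.88 and TWIST1 by -1.66. Among EMT factors the difference was -1.39 for TWIST2, -0.56 for SNAI2, -3.99 for ZEB1, -2.82 for FOXC2, 3.65 for FOXQ1 and 1.33 for SOX9. Epithelial factors were all positive, at 4.60 for GRHL2, 4.11 for OVOL1, 3.87 for TP63, 4.73 for EHF, 1.04 for KLF4, 3.31 for FOXA1, 3.83 for TFCP2L1, 4.40 for ELF3 and 5.80 for the cofactor VGLL1. Splicing regulators stood at 4.38 for ESRP1, 3.44 for ESRP2, 4.10 for RBM47 and -0.97 for QKI.

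Among junction and surface genes the difference was 4.62 for CDH1, 4.23 for CDH3, 4.84 for EPCAM, 1.16 for CLDN1, 4.23 for CLDN4, 4.78 for OCLN, 4.20 for CD24, 4.28 for CRB3, 6.44 for TJP3 and 3.93 for NGFR. Hemidesmosome and desmosome genes had 2.90 for ITGB4, 1.69 for ITGA6, 2.73 for LAMA3, 3.69 for COL17A1, 1.78 for DSP and 0.83 for PKP2. Keratins had 3.96 for KRT5, 2.95 for KRT14 and 6.41 for KRT13. Keratinocyte and S100 genes had 3.96 for S100A8, 4.98 for S100A9, 7.07 for LCN2, 4.65 for KLK10, 5.57 for S100P and 4.68 for S100A14.

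Mesenchymal and collagen genes were negative, at -2.80 for VIM, -2.996 for CDH2, -2.26 for FN1, -2.54 for COL1A1, -1.50 for COL3A1, -0.48 for COL4A1, -3.03 for COL6A1 and -1.18 for COL8A1. Without replicate 1 of shATF4 DMSO those of COL3A1 (-1.30), COL6A1 (-2.19) and COL8A1 (-0.98) were not called. Other matrix genes had -0.77 for SPARC, 0.34 for TGFBI, -4.89 for MGP, -2.0 for LOX, -1.14 for LOXL2, -0.74 for SERPINH1, -2.09 for MMP2, 2.08 for MMP9, 1.62 for PLAU and 2.90 for HAS3. Contractile and signalling genes had -2.17 for MYL9, -1.38 for ACTA2, -2.59 for TAGLN, -0.59 for MYLK, -0.86 for TGFB2, -2.06 for CCN2, -2.92 for PDGFRB, -2.56 for FGFR1, 3.61 for FGFR2, 2.32 for SFRP1, 0.50 for NOTCH3, 5.16 for CALB2 and -0.54 for MME. That of PDGFRB was not called without replicate 2 of shATF4 DMSO (-2.36).

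In stress and metabolic genes the difference was 1.45 for DDIT4, 1.38 for TRIB3, 1.72 for CHAC1, 0.85 for ALDH1L2, 0.49 for PHGDH, 1.39 for SLC7A5, 0.99 for SLC3A2, 2.12 for SLC6A9, -2.09 for SLC7A2, -0.34 for HERPUD1, 0.40 for HMGCS1, -0.73 for INSIG1, -1.96 for HMOX1, 0.78 for CA9, -1.10 for CDKN2C and -0.68 for TYMS. Interferon and chemokine genes had 0.43 for HLA-B, 0.55 for PSMB9, 0.54 for IFIT3, 1.87 for IFI44, 2.11 for OAS1, -0.69 for CXCL1 and -1.34 for CXCL8.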

How the results depend on the processing

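Counts of called genes stayed within 1.5 times the reported ones under each alternative but a minimum 2-fold change, which left 1339 in shATF4 cells (1171 higher, 168 lower), 3949 in shCtrl cells (2418 higher, 1531 lower) and 1963 with a different response (1217 higher, 746 lower). Leaving out 1 library gave 4676 to 5412, 8982 to 9609 and 4530 to 5050 genes, with the lone sample assumed to vary like the other groups, and DESeq2's Wald test gave 5130, 8887 and 4311. Of 4019 values of single genes under the alternatives 3974 kept direction and side of the threshold, 24 lost the call, 21 gained it and none changed direction with a call. TWIST1 ranged from 1.05 to 1.55 and ATF4 from 0.27 to 0.33 in shATF4 cells, and the median share of the shCtrl change from 25.2 to 27.03% for genes that rose and 21.8 to 24.5% for genes that fell with 1 library left out. With a minimum change of 1 or 20 CPM, chosen after seeing the data, these medians were 25.7 and 26.0%, and 23.1 and 24.9%. Differences for COL3A1 (-1.30), COL6A1 (-2.19) and COL8A1 (-0.98) were not called without replicate 1 of shATF4 DMSO, nor that of PDGFRB (-2.36) without its replicate 2. List counts stayed within 1.5 times in 669 of 700 cases, and 26 of the other 31 were counts under 5. List medians were less stable: 71 of 350 moved by more than the spread between replicates, 14 of them without replicate 1 of shATF4 DMSO and 12 without replicate 2 of shATF4 Twist_OE, and 4 changed sign, for desmosomes and hemidesmosomes (0.06), serine and one-carbon synthesis (-0.02), breast markers (0.07) and leukocyte markers (-0.05), each with 1 library left out. With 2 replicates a group, genes of a few reads carry wide errors.

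The replicate number as a block gave 6691 genes in shATF4 cells, 10462 in shCtrl cells and 5726 with a different response. Same-numbered deviations from the group means correlated at 0.245 for the shATF4 pair of groups and 0.094 to 0.401 over the 4 groups (10706 genes), and nothing in the labels says what a number marks, so this is a hint from the data. Under the block DSP (-0.33) was called in shATF4 cells, MKI67 (-0.31) in shCtrl cells, and ASNS (1.28) and MT-CO1 (-0.40) in the difference.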

Other observations

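Further gene groups were measured in the same contrast, where 18.2% of all genes rose and 17.2% fell. Of 14 tested markers of basal and luminal breast cells, 5 rose and 6 fell in shATF4 cells (median log2 -0.02, and 0.07 without replicate 1 of shATF4 Twist_OE). MME, the surface peptidase CD10 of basal cells, was at 83.2 and 87.0 CPM in shATF4 Twist_OE cells, against 26.5 and 26.7 CPM in shATF4 DMSO cells, and LTF, lactoferrin, had up to 1.31 CPM with Twist_OE. Of 25 hypoxia and glycolysis genes 9 rose (5 without replicate 2 of shATF4 DMSO) and 9 fell, and CA9, a hypoxia-induced carbonic anhydrase, fell by 1.21 ± 0.09. Of 18 NRF2 targets 3 rose and 7 fell, and HMOX1, heme oxygenase, was at 11.9 and 13.1 CPM in shATF4 Twist_OE cells, against 4.33 and 4.92 CPM in shATF4 DMSO cells and 69.8 and 60.5 CPM in shCtrl Twist_OE cells. Of 15 CDK inhibitors and p53 targets 5 rose (3 without either replicate of shATF4 DMSO in turn) and 4 fell, with CDKN2C higher by 0.61 ± 0.10.

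Of 20 genes of secretion and COPII transport 8 rose and 3 fell (1 without replicate 2 of shATF4 Twist_OE) in shATF4 cells (median log2 0.09), while 16 rose in shCtrl cells. Of 13 mitochondrially encoded genes 1, MT-CO1, rose in shATF4 cells (median log2 0.17), where the number across the alternatives was 0 to 6, and 0 without either replicate of shATF4 DMSO in turn or replicate 2 of shATF4 Twist_OE, and 13 rose in shCtrl cells (median log2 0.70). The response was called lower in shATF4 cells for 7 of the 13, against 13.4% of all genes.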
